A study of Rattus norvegicus with 50 samples.

Results

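Of the 25885 gene names on the array, 71 were lower in the lung of TiO2-exposed rats both at the end of exposure and 3 days later, without a large difference between the control rats of D3 and D28. These members were chosen by the measured values themselves. With log2 of the series matrix values, the mean of the exposed rats had to lie 0.5 or more below that of the controls at D0 and at D3, and the means of the D3 and D28 controls had to differ by less than 0.4. The values at D0 and D3 are therefore given as a description, with no test. The exposed-against-control contrasts at D28, D90 and D180 did not choose the members and were tested, although the D28 control rats also entered the limit on the control difference.

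The rats were male F344, 12 weeks old, and breathed either an aerosol of TiO2 P25 nanoparticles at 10 mg/m3 (Exposed) or air (Control) by nose only, 6 hours a day and 5 days a week for 4 weeks. Lungs were taken when exposure ended (D0) or 3, 28, 90 or 180 days after that (D3 to D180), with 5 control and 5 exposed rats at each day. Each of the 50 samples was total RNA from the accessory lobe of 1 lung, hybridised alone to a one-colour Agilent array. The lobe holds all lung cell types together, so fewer cells of a type and less RNA per cell cannot be told apart in any value below. The labels give no litter or cage.

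The lung clears inhaled chemicals with oxidising and conjugating enzymes, among them the flavin monooxygenases, and it keeps its barrier through thin alveolar type 1 cells, sodium channels and cell junctions. Krüppel-like factors (KLF) are transcription factors that restrain growth or set metabolism, and several of them follow glucocorticoid hormone and the daily clock. The clock matters here because rats killed at different hours differ in many transcripts. The limit on the control difference removed genes that moved strongly between the control groups of D3 and D28, and the 71 remaining genes were described by the functions they serve.

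Without the control limit, 102 genes met the exposure limits, and 31 of them were left out, among them the clock genes Dbp, Nr1d1, Nr1d2, Per2, Per3 and Tef. The members just inside the exposure limit were TC596771, at -0.5009 at D3, and Ydjc, at -0.5017 at D0. Just outside it lay Epb41l4b, at -0.4998, and Cytl1, at -0.4995, both at D3. At the control limit, Ppl (0.3857) and Map3k6 (-0.3289) were the closest inside, and Tnxa-ps1 (0.4085) and Omd (-0.4210) the closest outside. The number of members depended on the scale. Background-subtracted, quantile-normalized signals in place of the series matrix values gave 232 genes, which included 70 of the 71.

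A gene symbol was given for 53 of the 71 members, and 18 carried only a transcript or probe identifier or a provisional name (LOC or RGD). All 71 passed the filter on dim probes, so none was lost from the tests, which ran over 25208 genes. The share of spots well above background ranged over the arrays from 68.75% to 84.53%, and median signals ran from 198 to 473.5. The arrays lay on 7 slides, with D0, D3 and D28 on slides 1 to 4 and D90 and D180 on slides 5 to 7, except that Exposed D3 replicate 1 lay on slide 5. The mean of 16 genes over-expressed at each day in an earlier analysis of these same arrays separated exposed from control rats at each day, which describes the arrays and is no independent check of the labels. The animal number of Exposed D180 replicate 2 follows directly on those of control rats, but its mean over the 16 genes, 0.783, was among the exposed rats of that day (0.424 to 0.783) and above its controls (-1.283 to -0.937). Without it 0 members were again under-expressed at D180. Typical lung transcripts were present, with 1 of 15 lung genes (Cldn5) under-expressed at D0, against 1.51% of all genes.

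The members lay closer to the controls at the later days than at D0 and D3, the days that chose them. Their median log2 change, exposed minus control in the normalized signals, was -0.74 at D0 and -0.83 at D3. It was -0.29 at D28 and closer to 0 later, -0.09 (D90) and -0.07 (D180). Over all genes tested the median lay between -0.001 and 0.004 on the last 3 days. At D28 61 of 71 members had a mean below the controls, at D90 46 and at D180 44. Of all 25208 genes tested, 12671, 12559 and 12338 did so on these days. The call used limma with a change of at least 1.5-fold and a Benjamini-Hochberg adjusted p under 0.05 over all genes tested.

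At D28 5 of the 71 members were under-expressed, which is 7.04% of them against 0.468% of all genes tested. These were Ephx4, Ear11, Lims2, Ly49s3 and the transcript known only by its probe name A_64_P146441. At D90 only Ephx4 was under-expressed, 1 of 71, against 0.135% of all genes. At D180 no member was under-expressed, where 0.0793% of all genes were; 7 of the 71 had an unadjusted p under 0.05 and a lower mean, against 3.09% of all genes. No member was over-expressed at D28, D90 or D180, against 0.861%, 0.246% and 0.246% of all genes. Without the limit on size, 9 members were lower at D28, against 1.44% of all genes. At D90 1 was lower, against 0.357%, and 2 were higher, against 0.69%, and at D180 1 was higher, against 0.635%. At an unadjusted p under 0.05 with no limit on size, 36 members had lower means at D28, against 8.1% of all genes, and 8 at D90, against 3.01%. Higher means were found for 1, 6 and 4 members at D28, D90 and D180, against 8.51%, 4.11% and 4.95%.

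The slide of the array mattered for these counts. With slide as a term in the fit, 14 members were under-expressed at D28, against 0.762% of all genes, 3 at D90, against 0.226%, and 0 at D180 in this limma fit, against 0.163%. The 9 added at D28 were Rnase17, Tac1, Ly49i3, Vom1r78, LOC302228, XM_216568, XM_344065, ENSRNOT00000002664 and A_64_P014942, and those added at D90 were LOC302228 and Tuba3a. Single rats mattered too. At D28 the count was 3 without Control D28 replicate 1 and 12 without Control D28 replicate 5 or without Exposed D28 replicate 1. All exposed rats lay below all control rats for 10 members at D28, against 1.57% of all genes tested, for 2 at D90 (Ephx4 and Igfbp2), against 1.63%, and for 5 at D180 (Alpk3, Ephx4, Hyal2, LOC498222 and Map3k6), against 1.46%.

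Whether the smaller changes of the later days differed from those of D28 was tested in the same fit. The change at D90 minus that at D28 was above 0 for 68 of 71 members, with a median of 0.29 against 0.004 over all genes. For no member did the adjusted p fall under 0.05. Unadjusted, 7 members had a p under 0.05, all towards a smaller loss, against 2.92% of all genes in either direction. The change at D180 minus that at D28 was above 0 for 64 of 71, again with no adjusted p under 0.05, and with 14 unadjusted, 13 of them towards a smaller loss, against 5.91% of all genes. From D90 to D180 no member passed either, and 5 had an unadjusted p under 0.05, 1 of them towards higher values, against 2.9% of all genes in either direction.

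**Figure D1:**
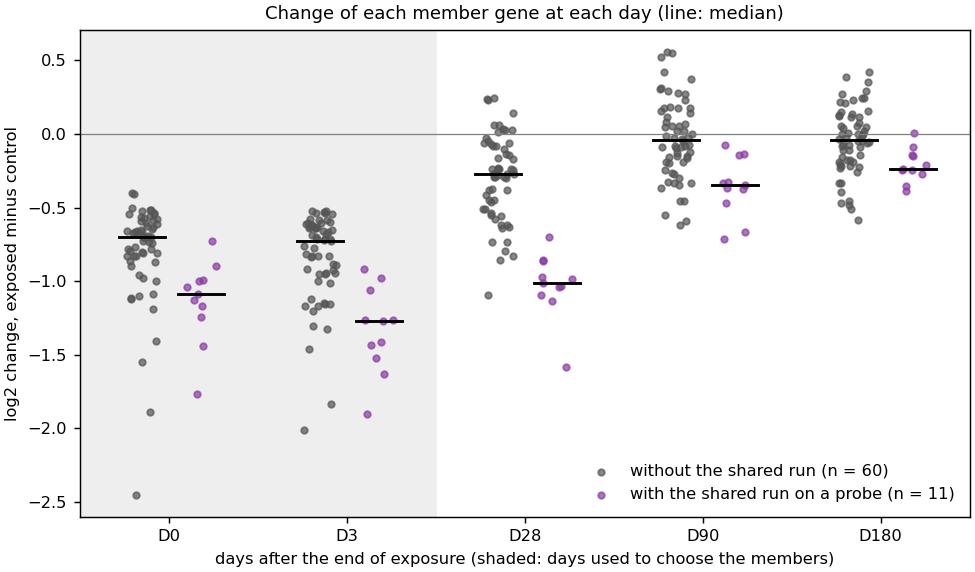
Log2 change, exposed minus control, of each of the 71 member genes (points) at D0, D3, D28, D90 and D180 after the end of exposure, with the median as a line, drawn apart for members with and without a run of letters shared by their probes. The shaded days chose the members, and the changes are not adjusted for slide. The median of the 60 members without the run went from -0.73 at D3 to -0.27 at D28 and -0.04 at D180, and that of the 11 with it was -1.27 at D3 and -1.01 at D28.

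Ephx4, which encodes a protein of the epoxide hydrolase family, was the one member under-expressed as late as D90. Values in single rats are normalized log2 signals, given in order of replicate number. At D0, Ephx4 measured 8.25, 8.26, 8.45, 8.41 and 8.30 in control rats and 7.28, 7.35, 7.33, 7.44 and 7.38 in exposed rats. At D3, Ephx4 measured 8.15, 7.97, 8.11, 8.24 and 8.28 in control rats and 7.09, 7.14, 6.92, 7.40 and 7.42 in exposed rats. At both days the exposed rats lay below every control. At D28, Ephx4 measured 8.48, 8.48, 8.28, 8.32 and 8.08 in control rats and 7.76, 7.53, 7.58, 7.22 and 7.28 in exposed rats. At D90, Ephx4 measured 8.42, 8.50, 8.53, 8.26 and 8.31 in control rats and 7.83, 7.72, 7.64, 7.80 and 7.96 in exposed rats. At D180, Ephx4 measured 8.57, 8.51, 8.61, 8.45 and 8.57 in control rats and 8.11, 8.15, 8.26, 8.31 and 8.21 in exposed rats. No exposed rat reached the lowest control on any day. The log2 change was -0.86 ± 0.09 (SE) at D28 with an adjusted p of 4.88e-09 (limma), -0.62 ± 0.09 (SE) at D90 with an adjusted p of 1.74e-05, and -0.33 ± 0.09 (SE) at D180 with an adjusted p of 0.0544. The D90 change lay close to the 1.5-fold limit, and without Control D90 replicate 3 or without Exposed D90 replicate 3 it was short of that limit, at -0.58 in both cases. It was also short of it with the series matrix values (-0.54), with 75th percentile scaling (-0.58) and with normexp background correction (-0.50). Its adjusted p lay between 3.23e-06 and 0.0104 over 19 alternatives. The change at D180 minus that at D28 was 0.52, with an adjusted p of 0.198. Within slides, exposed minus control at D28 was -0.68, -0.73 and -1.06 on slides 1, 3 and 4.

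Ear11 belongs to the eosinophil-associated ribonucleases, and its array accession carries the RefSeq symbol Rnase3. At D0, Ear11 measured 10.48, 10.56, 10.41, 10.35 and 10.06 in control rats and 9.03, 8.53, 8.67, 8.73 and 9.15 in exposed rats. At D3, Ear11 measured 9.95, 10.01, 9.86, 9.68 and 9.98 in control rats and 8.47, 8.81, 8.62, 8.83 and 8.74 in exposed rats. Exposed rats were below every control at both days. In the values of the rule this loss was the largest of all members at D0, at -1.44, and at D3 it was -1.14, where Tac1 was lower at -1.51. At D28, Ear11 measured 10.28, 9.91, 9.79, 9.91 and 9.89 in control rats and 9.31, 9.43, 9.33, 9.19 and 9.44 in exposed rats. At D90, Ear11 measured 9.91, 9.97, 9.66, 9.70 and 9.95 in control rats and 9.52, 9.50, 8.75, 9.48 and 9.67 in exposed rats. At D180, Ear11 measured 10.14, 10.06, 9.83, 9.89 and 10.08 in control rats and 9.64, 9.92, 9.89, 10.03 and 9.76 in exposed rats. The groups did not overlap at D28, overlapped by 1 exposed rat at D90 and overlapped more widely at D180. At D28 the change was -0.62 ± 0.12 (SE) with an adjusted p of 0.00116, at D90 -0.45 ± 0.12 (SE) with an adjusted p of 0.0583, and at D180 -0.15 ± 0.12 (SE) with an adjusted p of 0.963. Leaving out Control D28 replicate 1, the highest control, took the D28 change to -0.54, and normexp background correction took it to -0.57, both under the 1.5-fold limit, while its adjusted p stayed between 0.000396 and 0.0346 over 19 alternatives. Within slides 1, 3 and 4 it was -0.46, -0.60 and -0.60.

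A second ribonuclease of this family, Rnase17, was also a member, at -1.89 and -1.46 at D0 and D3. The probes of the pair share a run of 22 bases, shown in capitals in the last 30 bases of each probe because the signals cannot be taken as separate measurements of 2 genes:
Ear11: tCTTCATACAAGTTTTGCTAGTGttgttgg
Rnase17: atactttcCTTCATACAAGTTTTGCTAGTG
At D28 Rnase17 was at -0.73 ± 0.24 (SE) with an adjusted p of 0.0857, which did not pass, and with slide as a term its adjusted p was 0.0126. Alox15, the 15-lipoxygenase that oxidises arachidonic acid and is abundant in eosinophils and some macrophages, was at -1.19 and -1.12. At D28 its change of -0.51 ± 0.13 (SE) had an adjusted p of 0.0157 but was under the 1.5-fold limit. Of 20 eosinophil and mast cell genes tested that are not members, 1 was under-expressed at D0 and 2 at D3, where 1.51% of all genes tested were at each day. These were the mast cell tryptases Tpsb2 at both days and Tpsab1 at D3. In the other direction, 1 of the 20, the ribonuclease Rnase2, was over-expressed at D0, against 2.77% of all genes. The defining eosinophil genes Prg2 (0.25 at D0, adjusted p = 0.725) and Epx (-0.26, adjusted p = 0.688) did not pass at D0, and Epx was near the lowest signals, at 2.97 in controls. The mean of the list of 22, Ear11 and Alox15 included and each gene minus its mean over 50 arrays, ran from -0.14 to 0.33 in D28 controls and from 0.009 to 0.156 in D28 exposed rats, so the groups overlapped.

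Lims2 encodes PINCH-2, an adaptor of integrin-linked kinase at cell-matrix contacts. At D28, Lims2 measured 12.81, 12.90, 13.20, 13.15 and 13.03 in control rats and 12.32, 12.43, 12.31, 12.44 and 12.52 in exposed rats. The groups were apart at this day. At D0, Lims2 measured 13.39, 13.63, 13.18, 13.33 and 13.23 in control rats and 13.08, 12.53, 12.30, 12.33 and 12.38 in exposed rats. At D3, Lims2 measured 12.39, 12.32, 12.50, 12.84 and 13.16 in control rats and 12.05, 11.96, 11.90, 11.89 and 12.12 in exposed rats. At both early days all exposed rats lay below all controls. At D90, Lims2 measured 12.93, 13.28, 13.25, 12.95 and 12.84 in control rats and 12.55, 12.38, 12.82, 12.85 and 12.80 in exposed rats. At D180, Lims2 measured 13.16, 13.23, 13.57, 12.81 and 13.49 in control rats and 13.33, 13.01, 13.37, 12.88 and 13.32 in exposed rats. The highest exposed rat just passed the lowest control at D90, and the groups were mixed at D180. The change was -0.62 ± 0.14 (SE) at D28 with an adjusted p of 0.00707, -0.37 ± 0.14 (SE) at D90 with an adjusted p of 0.384 and -0.07 ± 0.14 (SE) at D180 with an adjusted p of 1. Without Control D28 replicate 3 the D28 change was -0.57, short of 1.5-fold, as it was at -0.56 with the series matrix values and with normexp, and over 19 alternatives the adjusted p ran from 0.00284 to 0.0267.

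Ly49s3 and Ly49i3 encode lectin-like receptors of natural killer cells, from a family of near-identical genes whose probes may share transcripts. At D0, Ly49s3 measured 7.68, 7.75, 7.88, 8.22 and 7.78 in control rats and 6.99, 6.94, 6.43, 7.40 and 7.21 in exposed rats. At D3, Ly49s3 measured 7.65, 7.77, 7.79, 7.90 and 7.69 in control rats and 6.91, 6.80, 7.42, 7.00 and 6.52 in exposed rats. Exposed rats were below every control at both days. At D28, Ly49s3 measured 7.85, 7.64, 7.86, 7.60 and 7.96 in control rats and 6.73, 6.97, 7.11, 7.29 and 6.82 in exposed rats. At D90, Ly49s3 measured 7.29, 7.73, 7.77, 7.45 and 7.76 in control rats and 7.33, 6.98, 7.44, 6.92 and 7.04 in exposed rats. At D180, Ly49s3 measured 8.29, 7.76, 7.29, 8.24 and 8.14 in control rats and 7.04, 7.90, 7.61, 7.71 and 7.48 in exposed rats. Only at D28, of these later days, did the groups stay apart. At D28 the change was -0.80 ± 0.17 (SE) with an adjusted p of 0.003 (0.000558 to 0.0294 over 19 alternatives), at D90 -0.46 ± 0.17 (SE) with an adjusted p of 0.33 and at D180 -0.40 ± 0.17 (SE) with an adjusted p of 0.476. With normexp background correction the D28 change was -0.58, short of 1.5-fold. Ly49i3 was at -0.83 ± 0.26 (SE) at D28, with an adjusted p of 0.0618 that became 0.0192 with slide as a term. None of 29 natural killer and T cell genes tested was under-expressed on any day, where 0.0793% to 1.51% of all genes were. At an unadjusted p under 0.05 in limma, 0, 0, 0, 0 and 1 had a lower mean in order of day, and 9, 6, 5, 1 and 1 a higher mean. At D28, D90 and D180, 8.1%, 3.01% and 3.09% of all genes had a lower mean, and 8.51%, 4.11% and 4.95% a higher one. For D0 and D3 these shares were not counted. Over-expressed at D0 were 3 T cell genes of the 29 (Cd3g, Cd5 and Cd6), against 2.77% of all genes. The mean of that list, each gene minus its mean over 50 arrays, was -0.157 to 0.01 in D28 controls and -0.007 to 0.095 in D28 exposed rats. Its median log2 change was 0.17 at D0 and 0.10 at D28. Neutrophil genes were higher in exposed rats, with 6 of 16 over-expressed at D0, against 2.77% of all genes. At D3 5 were, against 1.98%, and at D28 2, against 0.861%. Their part in the lower signals was not tested.

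**Figure D2:**
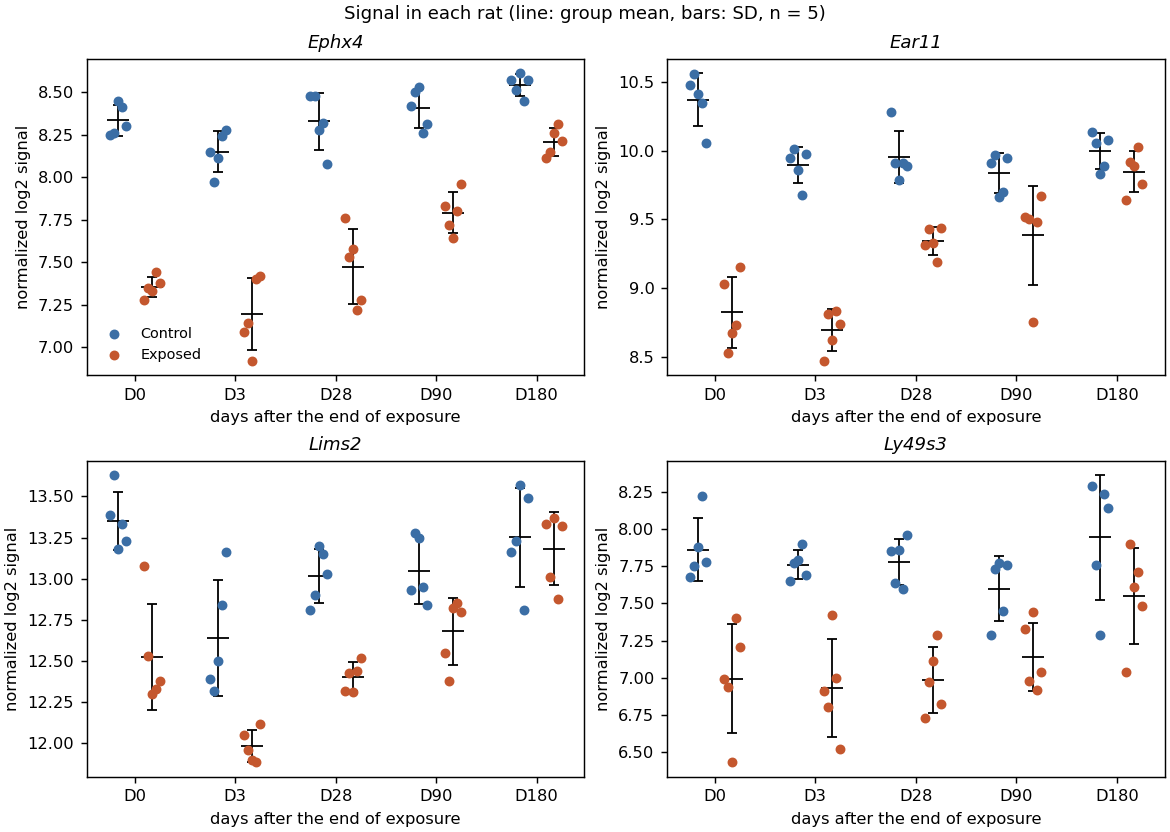
Normalized log2 signal of Ephx4, Ear11, Lims2 and Ly49s3 in each control (blue) and exposed (orange) rat at each day, with group mean and SD (n = 5). Exposed rats lie below all controls at D0, D3 and D28 for all 4 genes and at all 5 days for Ephx4.

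Tac1 gives rise to substance P and neurokinin A, transmitters of sensory nerves in the airway. At D0, Tac1 measured 9.26, 9.78, 9.58, 9.61 and 9.17 in control rats and 7.96, 8.01, 7.72, 8.25 and 8.44 in exposed rats. At D3, Tac1 measured 9.23, 9.28, 9.15, 9.28 and 9.31 in control rats and 6.71, 7.00, 7.34, 8.01 and 7.12 in exposed rats. The separation was widest at D3. At D28, Tac1 measured 9.61, 9.51, 9.16, 9.36 and 9.36 in control rats and 8.83, 8.58, 8.96, 9.05 and 8.43 in exposed rats. At D90, Tac1 measured 9.33, 9.27, 9.28, 9.38 and 9.30 in control rats and 9.38, 8.68, 9.69, 8.84 and 8.62 in exposed rats. At D180, Tac1 measured 9.43, 9.17, 8.31, 8.92 and 9.24 in control rats and 8.70, 9.23, 8.97, 9.17 and 8.63 in exposed rats. At D28 no exposed rat reached the lowest control, and at D90 and D180 the groups overlapped. The D28 change of -0.63 ± 0.19 (SE) had an adjusted p of 0.056, just short of the limit, and it passed under 5 of 19 alternatives, among them slide as a term, over which the adjusted p ran from 0.0121 to 0.194. Its second probe gave -0.75 at D28. Among 22 other nerve genes tested, 1 was under-expressed at D0 (Slc6a2) and 1 at D3 (Npy), against 1.51% of all genes at each day. Calcb and Scn10a, 2 of the 22, were over-expressed at D0 and D3, against 2.77% and 1.98%.

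Klf15 and Klf9, KLF genes induced by glucocorticoids, were low early and at no later day passed the test. At D0, Klf15 measured 12.60, 12.82, 12.53, 11.94 and 11.80 in control rats and 11.42, 11.29, 11.08, 11.18 and 11.13 in exposed rats. At D3, Klf15 measured 12.01, 12.52, 12.03, 11.74 and 12.56 in control rats and 10.48, 10.77, 10.73, 11.38 and 11.72 in exposed rats. Exposed rats were all below controls at both days. At D28, Klf15 measured 12.39, 11.95, 12.25, 11.81 and 11.43 in control rats and 11.82, 11.67, 12.19, 12.23 and 12.04 in exposed rats. At D90, Klf15 measured 11.50, 11.72, 11.47, 10.80 and 11.11 in control rats and 11.34, 11.39, 12.30, 12.43 and 11.92 in exposed rats. At D180, Klf15 measured 12.63, 12.09, 12.40, 11.84 and 12.19 in control rats and 11.89, 11.64, 11.65, 11.75 and 11.86 in exposed rats. At D28 the groups were mixed, at D90 3 of 5 exposed rats were above every control, and at D180 3 of 5 were below every control. The changes were 0.03 ± 0.22 (SE), 0.55 ± 0.22 (SE) and -0.47 ± 0.22 (SE), with adjusted p of 0.967, 0.427 and 0.576. Klf9 was at -0.56 and -0.63 at D0 and D3, and its change was 0.03 at D28, 0.42 at D90 (adjusted p = 0.397) and -0.06 at D180. Of all genes tested, 1.51%, 1.51% and 0.468% were under-expressed at D0, D3 and D28, and 2.77%, 1.98% and 0.861% over-expressed. Of 15 glucocorticoid-responsive genes tested that are not members, 2 were under-expressed and 3 over-expressed at D0, 2 and 3 at D3, and 3 and 1 at D28. None of the 17 clock genes tested was a member. The control limit left out the 6 that were under-expressed at D0 and at D3. Over-expressed were 3 at D0 (Bhlhe41, Arntl and Nfil3) and 4 at D3, these and Npas2. At D28 4 of the 17 were under-expressed and 7 over-expressed. The mean of that list, each gene minus its mean over 50 arrays, was -0.349 to -0.226 in D28 controls and 0.025 to 0.25 in D28 exposed rats. Their part in the members' values was not tested.

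RefSeq promoters (build GRCr8, 250 bases before to 50 after the start) were found for 40 of the 71 members, which is 56.3% and under the 80% needed for comparing shares between members and other genes. The E-box CACGTG, the element that the clock proteins Clock and Bmal1 bind, was searched on both strands and occurs in 6.65% of 27457 promoters. It was found in 8 of the 40 members' promoters. The D-box TTATGTAA, another clock element, is in 0.881% of promoters and in 0 of the 40. Of the 12 members with a symbol and the largest losses at D0 and D3, Klf15, Tac1 and Igfbp2 hold the E-box. Their promoters are shown because the 3 genes differ in their values after D3, with the E-box in capitals. Klf15 lies at chr4:124522765-124523064, Tac1 at chr4:36645333-36645632 and Igfbp2 at chr9:81864561-81864860, all on the plus strand:
Klf15: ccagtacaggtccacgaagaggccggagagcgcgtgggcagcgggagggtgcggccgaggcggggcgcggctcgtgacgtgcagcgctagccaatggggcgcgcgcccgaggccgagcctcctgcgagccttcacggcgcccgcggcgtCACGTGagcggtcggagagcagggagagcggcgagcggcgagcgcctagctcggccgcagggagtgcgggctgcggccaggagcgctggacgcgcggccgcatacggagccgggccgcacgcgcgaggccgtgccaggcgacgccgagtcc
Tac1: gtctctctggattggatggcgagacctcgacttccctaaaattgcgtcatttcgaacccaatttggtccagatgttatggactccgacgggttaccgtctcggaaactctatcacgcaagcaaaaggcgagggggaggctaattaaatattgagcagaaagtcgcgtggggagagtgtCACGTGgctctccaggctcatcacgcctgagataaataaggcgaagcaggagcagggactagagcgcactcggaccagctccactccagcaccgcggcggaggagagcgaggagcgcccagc
Igfbp2: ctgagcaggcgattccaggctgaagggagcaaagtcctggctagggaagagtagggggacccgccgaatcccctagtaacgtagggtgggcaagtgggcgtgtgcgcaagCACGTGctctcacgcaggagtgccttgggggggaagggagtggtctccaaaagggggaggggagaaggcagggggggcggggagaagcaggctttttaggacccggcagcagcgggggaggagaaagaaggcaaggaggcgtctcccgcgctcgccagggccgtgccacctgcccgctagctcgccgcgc
Counted from the first base of the transcript as 0, the E-box begins at -101 in Klf15, at -72 in Tac1 and at -140 in Igfbp2. A match of letters is a description and says nothing of binding.

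The members placed under transcription and growth control, 9 with Klf15 and Klf9, had median changes, from D0 to D180, of -0.59, -0.63, -0.10, 0.18 and 0.11. Pik3ip1, an inhibitor of PI3 kinase, was at -0.66 and -0.93 at D0 and D3 and at 0.55 ± 0.13 (SE) at D90, with an adjusted p of 0.0133 and a size just under 1.5-fold. Cdkn1c, the cell cycle inhibitor p57, was at -0.23 at D28 (adjusted p = 0.137). Map3k6, a stress kinase, was at -0.51 (adjusted p = 0.104), Klf11, a TGF-beta-induced KLF, at -0.17 (adjusted p = 0.583), and Ndrg2 at -0.16 (adjusted p = 0.478). Tenc1, a tensin of focal contacts, was at -0.10 and Eef2k, the kinase that slows translation elongation, at 0.06. Only 1 of the 9 had a mean below the controls at D90.

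Enzymes of metabolism formed a group of 9, and their medians, in order of day, were -0.69, -0.83, -0.24, -0.07 and 0.04. Fmo2, the main flavin monooxygenase of the lung, was at -0.57 and -1.16 at D0 and D3. Its change was -0.55 ± 0.15 (SE) at D28, with an adjusted p of 0.021 and a size under 1.5-fold.

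In the same group, Cdo1, which oxidises cysteine, was at -0.45 at D28 (adjusted p = 0.0827), Akr1c19, an aldo-keto reductase, at -0.24, and Fn3k, which repairs glycated proteins, at -0.24. Aoc3, the vascular amine oxidase VAP-1, was at -0.14 and Adhfe1 at 0.06. Gnmt, which consumes S-adenosylmethionine to methylate glycine, was at -0.65 and -0.67 at D0 and D3, and at 0.24 at D28, 0.37 ± 0.09 (SE) at D90 and 0.42 ± 0.09 (SE) at D180. Its adjusted p was 0.143, 0.0279 and 0.0114, with sizes under 1.5-fold. Of 29 club cell and xenobiotic genes tested that are not members, 6 were under-expressed at D0 and 7 at D3, against 1.51% of all genes at each day. At D28 1 was, against 0.468%.

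Serpinb10, a serpin of blood-forming cells, was low at D3 above all. At D0, Serpinb10 measured 11.78, 12.53, 12.71, 12.42 and 11.72 in control rats and 11.35, 11.14, 11.70, 11.34 and 12.25 in exposed rats. At D3, Serpinb10 measured 12.23, 12.32, 11.62, 11.83 and 12.34 in control rats and 10.40, 10.41, 10.81, 11.23 and 10.97 in exposed rats. The groups overlapped at D0 and were apart at D3. At D28, Serpinb10 measured 12.38, 12.25, 11.64, 12.33 and 11.75 in control rats and 12.01, 11.56, 12.22, 11.55 and 11.65 in exposed rats. At D90, Serpinb10 measured 11.59, 11.70, 11.54, 11.68 and 11.53 in control rats and 11.68, 11.81, 12.11, 11.76 and 11.59 in exposed rats. At D180, Serpinb10 measured 11.99, 11.22, 11.20, 11.24 and 12.05 in control rats and 11.75, 11.78, 12.17, 12.17 and 11.77 in exposed rats. At these 3 days the groups overlapped, and at D90 and D180 most exposed rats lay among the higher values. The changes were -0.27 ± 0.21 (SE), 0.18 ± 0.21 (SE) and 0.39 ± 0.21 (SE), with adjusted p of 0.559, 1 and 0.708.

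Epithelial members were Igfbp2 and Clic5, which mark alveolar type 1 cells, Scnn1a, the alpha subunit of the epithelial sodium channel, Ppl, a junction plakin, and Prom2. Their median was -0.66 at D0, -0.84 at D3, -0.29 at D28 and -0.10 at D90. Igfbp2 was at -0.38 ± 0.10 (SE) at D28 (adjusted p = 0.02), -0.35 ± 0.10 (SE) at D90 (adjusted p = 0.0835) and -0.22 ± 0.10 (SE) at D180 (adjusted p = 0.515), each under 1.5-fold, and at D28 and D90 all exposed rats lay below all controls. Prom2 was at -0.54 at D28 (adjusted p = 0.0519), Clic5 at -0.29 (adjusted p = 0.177), Scnn1a at -0.03 (adjusted p = 0.922) and Ppl at 0.01 (adjusted p = 0.967). Of 13 alveolar type 1 genes tested that are not members, 0 were under-expressed at D0, 2 at D3 and 0 at D28. The shares of all genes were 1.51%, 1.51% and 0.468%. With Igfbp2 and Clic5 the list holds 15, of which 10 at D0 and 6 at D28 had an unadjusted p under 0.05 and a lower mean (limma). At D28 8.1% of all genes did, and for D0 that share was not counted. Igfbp2 and Clic5 were themselves chosen for low values at D0 and D3, so the D0 count is a description. The list's median change was -0.35, -0.52 and -0.26 from D0 to D28, and its mean, each gene minus its mean over 50 arrays, was 0.071 to 0.228 in D28 controls and -0.096 to 0.008 in D28 exposed rats. Alveolar type 2 genes had a median of 0.20 at D0, with 0 of 15 under-expressed, against 1.51% of all genes, and 2 over-expressed, against 2.77%. At an unadjusted p under 0.05 (limma), 1 had a lower and 7 a higher mean at D0, where the shares of all genes were not counted. At D28 0 had a lower and 8 a higher mean, against 8.1% and 8.51% of all genes. The mean of the type 2 list was -0.104 to 0.017 in D28 controls and 0.095 to 0.174 in D28 exposed rats. The part of either cell type in the members' values was not tested.

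Vessel and lymphatic members were Lims2, the hyaluronan receptor Lyve1, the endothelial receptor Cd300lg and the hyaluronidase Hyal2, with medians of -0.79, -0.67, -0.34, -0.16 and -0.06 at the 5 days. Lyve1 was at -0.27 ± 0.11 (SE) at D28 (adjusted p = 0.188), Cd300lg at -0.27 (adjusted p = 0.275) and Hyal2 at -0.42 (adjusted p = 0.31). Of 42 endothelial genes tested that are not members, 9 were under-expressed at D0, 0 at D3, and 1 at each later day. The shares of all genes were 1.51%, 1.51%, 0.468%, 0.135% and 0.0793% in order of day. In the other direction, Selp and Sele, 2 of the 42, were over-expressed at D0, against 2.77%. The mean of the list, Lyve1 included and each gene minus its mean over 50 arrays, was lower in every exposed rat than in every control at all 5 days. It was 0.026 to 0.15 in controls and -0.157 to 0.022 in exposed rats at D28, 0.022 to 0.163 and -0.211 to 0.006 at D90, and 0.064 to 0.142 and -0.077 to 0.058 at D180. The list was drawn up with earlier results of these data known, so its counts and its mean are a description. The part of these genes in the members' values was not tested. Secreted and contact signals were Wnt2b, at -0.30 at D28 (adjusted p = 0.274), the ephrin Efnb1, at -0.45 (adjusted p = 0.279), and Igfbp6, at 0.04 (adjusted p = 0.947). Among transporters and channels, the drug pump Abcb1b was at -0.29 (adjusted p = 0.261), the potassium channel subunit Kcnmb4 at -0.46 (adjusted p = 0.0923), Sec14l1 at -0.38 and Cpe, which trims prohormones, at -0.28. The symbols outside these groups, Cped1, Ydjc, Galnt18, Kif13b, Fbxo10 and Susd2, lay between -0.70 (Kif13b) and -0.06 (Ydjc) at D28.

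**Figure D3:**
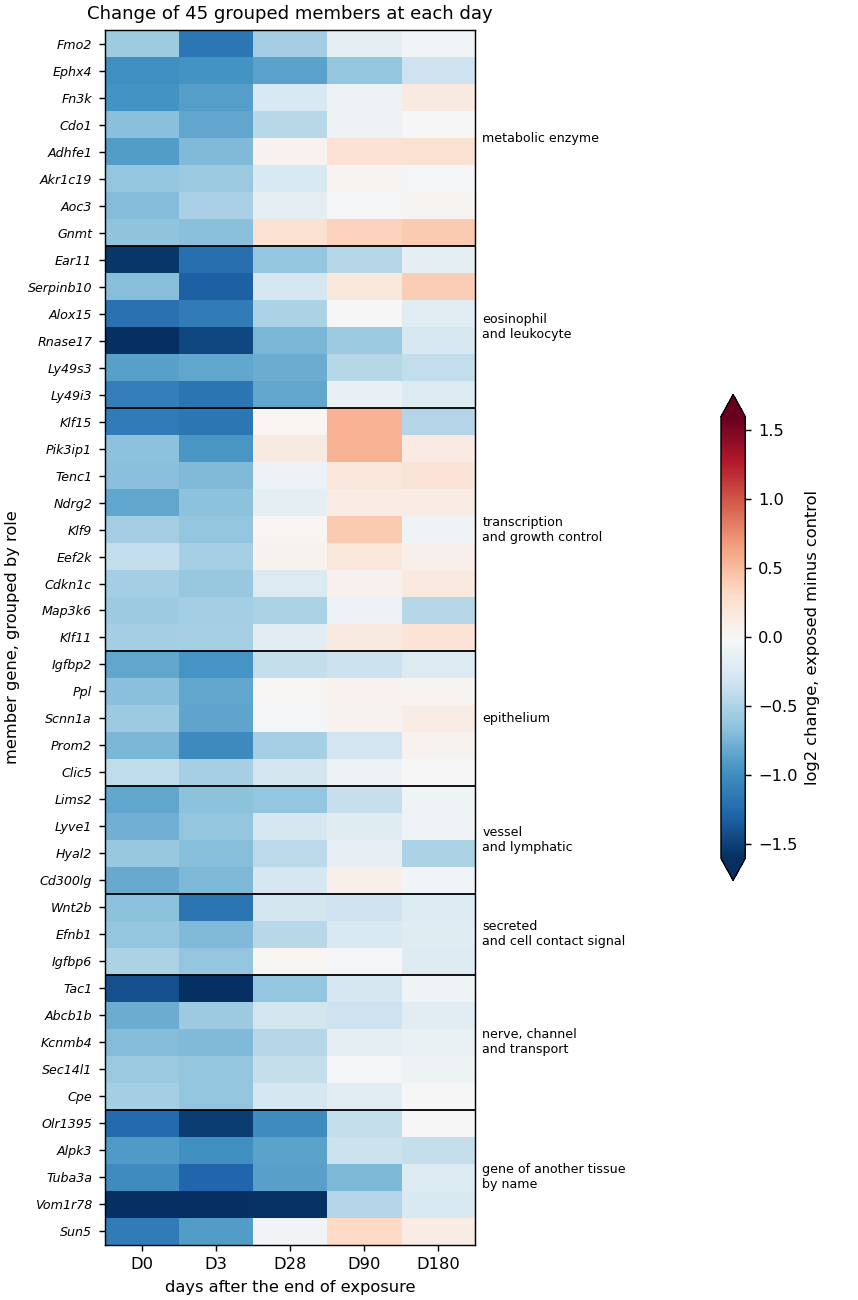
Log2 change, exposed minus control, of 45 of the 47 members placed in a functional group (the others are not reported here), 1 gene a row and 1 day a column, with blue for lower and red for higher in exposed rats. Colours end at 1.6 on either side. The blue of D0 and D3 fades at D28 in most rows, and 11 rows are at least 1.5-fold lower there.

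Most members with the lowest change at D28 were of another kind. They bear names of genes from other tissues or bare identifiers, among them the olfactory receptor Olr1395, the vomeronasal receptor Vom1r78, the testis tubulin Tuba3a and the heart kinase Alpk3. Many of their probes share letters, but not all. The run GTCTTCC stands on a probe of 11 of the 71 members, and in 8 of these it goes on to GTCTTCCC. The run was found after the values were seen, so what follows is a description. It was not used in choosing the members. A_64_P014942 was also low at D28, at -1.10 ± 0.38 (SE) and at -0.75 with slide as a term, but its probe does not hold the run. It is counted below among the 60 members without the run. Stretches of 30 bases of the 11 probes are shown, 5′ to 3′, with the run in capitals:
Vom1r78: gatgtatgacccaGTCTTCCtgagtgttca
LOC302228: caagttctagccaaGTCTTCCgtgtacttc
XM_216568: cacagaatgagGTCTTCCCagaacccatgt
XM_344065: gcatcaccagaGTCTTCCCcagaaaacctg
A_64_P146441: tcttcccaattccctGTCTTCCtcagatgt
Olr1395: ccataatcttgGTCTTCCCtgcaacattaa
ENSRNOT00000002664: aagtaagccagGTCTTCCCatgtcacatca
A_64_P004274: tgtacttttgtGTCTTCCCtgataacagtc
Tuba3a: cgtccatttacGTCTTCCCcaccattgaaa
Alpk3: gccccagaagaaagGTCTTCCCagtcctca
Kif13b: cctgtcagagtGTCTTCCCctccatctacc
Outside the run the letters differ. Per the array annotation (build rn4), the 60-base probes lie at chr4:86626641-86626700, plus strand (Vom1r78), chr5:158820980-158821039, minus strand (XM_216568), chr12:2413116-2413175, plus strand (XM_344065), chr10:34887221-34887280, plus strand (Olr1395), chr14:21377235-21377294, minus strand (ENSRNOT00000002664), chr15:26056035-26056094, minus strand (A_64_P004274), chr4:161396188-161396247, minus strand (Tuba3a), chr1:137303125-137303184, plus strand (Alpk3) and chr15:44163458-44163517, plus strand (Kif13b), so on 7 chromosomes, and those of LOC302228 and A_64_P146441 on unplaced sequence. Exons and introns of that build were not used here.

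The 8 letters GTCTTCCC occur on 38 of 30367 probes, which is 0.125%. The shorter run is on 135 probes, with medians of -0.11 at D0, -0.08 at D3 and -0.07 at D28, the 11 of members included. The 124 of genes outside the list had medians of -0.08, -0.06 and -0.04. At D28 13.7% of these 124 lay at -0.5 or less, against 6.01% of all probes. The median log2 change of the 38 probes was -0.37, -0.43, -0.37, -0.13 and -0.09 at the successive days. The 8 members among the 38 had been chosen for low values at D0 and D3. The 30 such probes of genes outside the list had medians of -0.25, -0.22, -0.19, -0.08 and -0.05, and 26.7% of them lay at -0.5 or less at D28, against 6.01% of all probes. Of the 38, 1 is a probe of Igsf21, a gene outside the list whose probe overlaps that of XM_216568 in rn4, and it was at -1.09 at D28, as was XM_216568. Probes are therefore not independent genes here.

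In single rats these members spread widely. Olr1395 was among the 12 with the largest losses. At D0, Olr1395 measured 6.48, 9.25, 8.85, 7.07 and 6.83 in control rats and 5.80, 5.46, 7.84, 5.68 and 7.48 in exposed rats. At D3, Olr1395 measured 8.51, 8.69, 6.65, 7.05 and 8.79 in control rats and 5.53, 5.39, 6.14, 7.43 and 7.59 in exposed rats. Within each group the values fell into high and low rats. At D28, Olr1395 measured 8.65, 8.70, 6.35, 8.26 and 6.45 in control rats and 7.56, 5.81, 7.57, 6.65 and 5.77 in exposed rats. At D90, Olr1395 measured 7.19, 6.70, 7.34, 7.47 and 6.64 in control rats and 7.02, 7.12, 6.90, 6.02 and 6.38 in exposed rats. At D180, Olr1395 measured 7.51, 7.63, 6.67, 6.29 and 7.43 in control rats and 6.83, 7.58, 7.14, 7.25 and 6.76 in exposed rats. The groups overlapped at every day. At D28 the change was -1.01 ± 0.55 (SE) with an adjusted p of 0.359. The SD within groups had a median of 0.73 over the 11 members with the run, 0.23 over the 60 without it and 0.27 over all genes tested. A_64_P146441 was the one of the 11 under-expressed at D28, at -1.04 ± 0.31 (SE) with an adjusted p of 0.0419, and it did not pass under 11 of 19 alternatives, with an adjusted p of 0.0218 to 0.151. Without Exposed D28 replicate 5 it was 0.151. Vom1r78 was at -1.59 ± 0.57 (SE) at D28 (adjusted p = 0.116), but at -0.57 with the series matrix values and -0.49 with normexp, and over 19 alternatives its adjusted p ran from 0.0144 to 0.417. Its signal was well above background on no array of Exposed D3 and on 31 of 50 arrays in all.

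The high and low rats followed the slides. The median level of the 11 members, each minus its mean over 50 arrays, was -0.46 to -0.35 in the 4 control rats on slide 1 and -0.35 to -0.10 in the 3 on slide 4. It was 1.12 to 1.77 in the 4 control rats on slide 2 and 0.84 to 1.42 in the 4 on slide 3. The D28 groups were uneven over the slides. Slide 2 held 1 control and no exposed rat of D28, and slide 1 held 1 control and 2 exposed rats. Exposure and slide are therefore not fully separated in the D28 changes fitted without slide. Within slides 1, 3 and 4 at D28, exposed minus control was -0.74, -0.61 and -0.42. Within slides 5, 6 and 7 it was -0.30, -0.49 and -0.33 at D90 and -0.23, -0.64 and -0.16 at D180. The 60 members without the run gave -0.25, -0.22 and -0.32 on the 3 slides of D28. On those of D90 they gave 0.03, 0.00 and -0.08, and on those of D180 0.01, 0.00 and -0.10. Whether the signals come from the named transcripts or from another RNA that binds the shared letters was not tested.

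**Figure D4:**
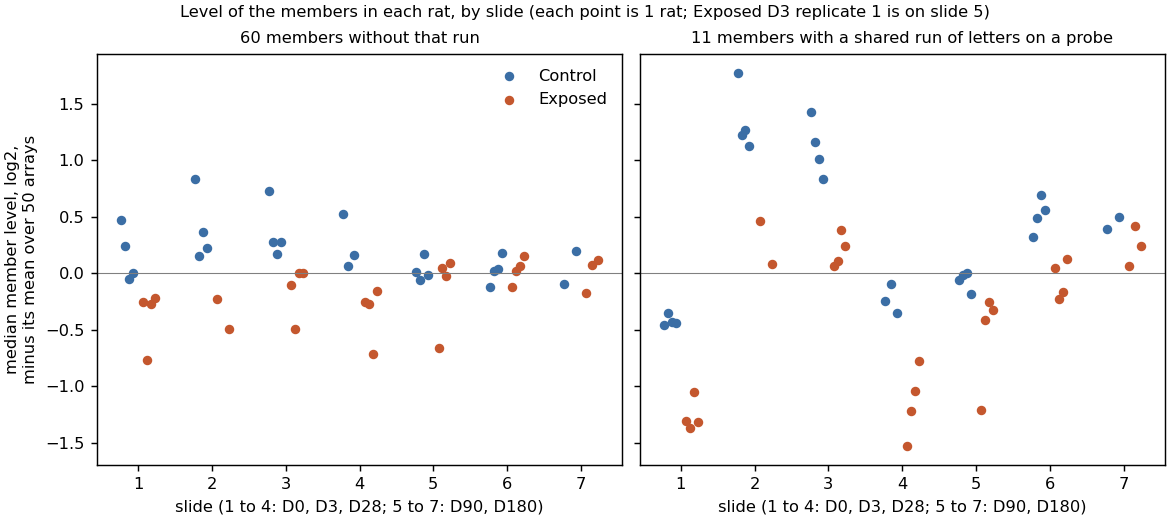
Median member level of each rat by slide, control in blue and exposed in orange, for the 60 members without the shared run (left) and the 11 with it (right), as log2 minus the mean over 50 arrays. Control rats on slides 2 and 3 lie at 0.84 or more on the right and those on slides 1 and 4 at or below -0.10.

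Counted without the 11, 60 members remained, of which 4 were under-expressed at D28, 1 at D90 and 0 at D180 (limma). Their median change was -0.27, -0.04 and -0.04 on these days. The median of the 11 was -1.01, -0.35 and -0.24, without slide in the fit, and at D28 the groups were uneven over the slides. The median level of all 71 in single rats overlapped at D28, from -0.044 to 0.341 in control and from -0.323 to 0.038 in exposed rats. That of the 60, an exclusion chosen after the values were seen, ran from 0.004 to 0.272 in control and from -0.274 to 0.001 in exposed rats, so the groups all but touched. At D90 it ran from -0.121 to 0.021 in controls and from -0.179 to 0.047 in exposed rats, and at D180 from -0.019 to 0.197 and from 0.066 to 0.150.

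**Figure D5:**
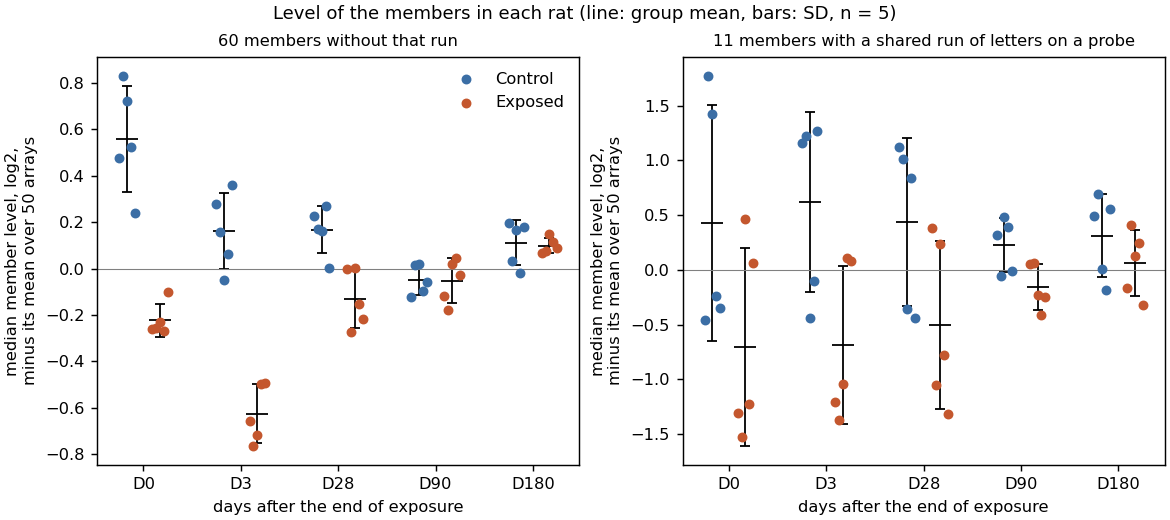
Median level of the members in each control (blue) and exposed (orange) rat at each day, for the 60 members without the shared run (left) and the 11 with it (right), with group mean and SD (n = 5); the axes differ. On the left the groups are apart at D0 and D3, all but touch at D28 and overlap at D90 and D180.

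The limit on control differences compared the D3 and D28 controls only, and other control groups did differ. Between the D0 and D28 controls, 25 of the 71 members differed by 0.4 or more with D0 higher, which is 35.2% of them against 2.59% of all gene names, and 1 differed as much with D0 lower. A high D0 control mean also makes a gene easier to choose, so this share is a description. The difference was 1.07 for Adhfe1, 1.07 for Cdo1, 0.96 for Gnmt, 0.96 for Ppl, 0.94 for Abcb1b and 0.91 for Fmo2. For 14 members the exposed rats of D0 had a mean at or above that of the D28 controls, and for none did those of D3. The 25 members had median changes of -0.16, -0.02 and 0.05 on the last 3 days, and the other 46 one of -0.51, -0.14 and -0.16. Between the D180 and D90 controls, 5 members differed by 0.4 or more with D180 higher, which is 7.04% against 0.676% of all gene names, and 1 with D180 lower.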

How the data were processed

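Total RNA from the accessory lobe of 50 rats was hybridised by the authors to one-colour Agilent arrays and read with Feature Extraction 11.0.1.1, per the submitters' processing notes. The deposited scanner files hold processed signal, an intensity per spot, with mean and background intensity. The deposited series matrix holds the authors' quantile-normalized median intensity on a linear scale, without background subtraction, and log2 of it, averaged by gene name, was used for choosing the members. Members and gene lists were chosen with earlier results of these data known, so the counts and means of the lists are descriptions.

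For testing, intensity was quantile-normalized on the log2 scale. Probes above the 95th percentile of negative controls on 5 or more arrays were kept, and the probe with the highest mean stood for each gene. Exposed was set against Control at each day in 1 limma 3.58.1 fit over all 10 groups (R 4.3.3), with Benjamini-Hochberg adjustment over 25208 genes. A gene was called under- or over-expressed at 1.5-fold and an adjusted p under 0.05. On simulated data for D28, 140 of 200 genes changed by 1 log2 unit were recovered, and 4 others were called. The simulated noise was independent between genes and held no slide differences, so these numbers need not hold for the measured arrays. Nothing says that rats came from separate litters, so p-values measure the spread between these samples, and the number of arrays limits the precision.

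Genes described were the 12 members with a symbol and the largest mean loss at D0 and D3, those called later, up to 3 members of each list and those nearest the limits, and most of the first 6 are given in every rat. Some of these genes are not reported here. Other members named were chosen after their values were seen. Alternatives were the series matrix values, 75th percentile scaling, normexp, the mean over probes, other filters, slide or replicate as a block, single days and leaving out each rat. Exclusion of members whose probes share letters was chosen after seeing the data. Figures were drawn with Python 3.11.15.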

Additional observations from a re-analysis of the deposited data

Results flagged for a closer look

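Of 110 groups of 5 rats checked, 3 held 1 rat far from the other 4, where about 1 group in 20 is expected to do so by chance. Ear11 measured 10.28 in Control D28 replicate 1, while the other controls of that day lay between 9.79 and 9.91. It measured 8.75 in Exposed D90 replicate 3, with the others between 9.48 and 9.67. The median level of the 60 members whose probes do not hold GTCTTCC was -0.1 in Exposed D0 replicate 5 and between -0.27 and -0.23 in the other exposed rats of D0.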

How the results depend on the processing

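The number of members depended on the values and limits: 232 genes with processed, quantile-normalized signals, 183 at a limit of -0.4, 39 at -0.6, 60 without probes holding GTCTTCC, and 59 to 93 when 1 rat was left out. At D28 the 5 under-expressed members became 8 with 75th percentile scaling, 1 with normexp, 14 with slide as a block, 9 without the fold limit, 17 at an unadjusted p and 1.5-fold, and 3 to 12 leaving out 1 rat. At D90 the 1 under-expressed member became 0 with the series matrix values, with 75th percentile scaling and with normexp, 3 with slide as a block, 2 at an unadjusted p and 1.5-fold, and 0 to 1 leaving out 1 rat (0 without Control D90 replicate 3 or Exposed D90 replicate 3). Over-expressed members at D90 became 2 without the fold limit and 0 to 2 leaving out 1 rat (1 without Control D90 replicate 2, 2 without Exposed D90 replicate 1 or 2), and at D180 1 without the fold limit. The cause of these shifts was not tested. With the replicate block the under-expressed members numbered 5, 1 and 0 at D28, D90 and D180, as without it. Same-numbered rats correlated between -0.339 and 0.449 in their deviations, so the numbers do not pair them. The median changes moved by less than the spread between replicates under every alternative run.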
